A study of Mus musculus with 18 samples.

Results

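The Hox genes of the mouse are homeobox transcription factor genes packed into the HoxA, HoxB, HoxC and HoxD clusters. All 39 protein-coding genes with a symbol of the form Hoxa, Hoxb, Hoxc or Hoxd followed by a number were taken, out of 47729 genes in the count files: 11 of HoxA on chromosome 6, 10 of HoxB on chromosome 11, 9 of HoxC on chromosome 15 and 9 of HoxD on chromosome 2. They were chosen by symbol and not by their values, and the comparison asks whether inhibiting histone deacetylases opens them in a tissue where they are shut.

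Whole cortex of mouse embryos at E15.5 was profiled after TSA or after Vehicle. TSA (trichostatin A) blocks histone deacetylases, the enzymes that take acetyl groups off histones. Every embryo group carried the BAF155 conditional knockout. BAF155 is a scaffold subunit of BAF, the SWI/SNF-type complex that slides and evicts nucleosomes. RNA was sequenced from 4 TSA and 4 Vehicle samples. Chromatin pulled down with an antibody to H3K9ac, the acetylated form of histone H3 found at active promoters and enhancers, was sequenced from 4 TSA and 4 Vehicle samples. The sources used here do not give the Cre driver of the knockout, the strain, the TSA dose or the time from dose to dissection, and samples with intact BAF155 were not analysed here. RNA totals were 6733415 to 20400727 counts in TSA and 12200426 to 15600340 counts in Vehicle. Whether replicates were separate embryos or litters is not in the labels, and the p-values speak only for the spread among these samples, which may be technical.

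Hox genes set the identity of body segments along the head-to-tail axis, and within a cluster the genes are switched on in the order in which they lie, from the 3′ end (low numbers, hindbrain) to the 5′ end (high numbers, tail). In the embryo they are active in hindbrain, spinal cord and trunk, and are silent in the forebrain, where the cortex arises. Polycomb complexes keep them shut under the histone mark H3K27me3, and their promoters are often rich in CpG dinucleotides.

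CpG-rich promoters carry H3K9ac at most other genes, so the letters before the start of a few members are shown. Of these, Hoxa13, Hoxd13 and Hoxa5 are CpG-rich by the measure given below, and Hoxa9 is not. RefSeq promoter entries of build GRCm38.p6, the same assembly as mm10, matched 22 of the 39 members. The 17 members without one include Hoxa4, Hoxb2, Hoxb3, Hoxb5, Hoxb6, Hoxb7, Hoxb9, Hoxb13, Hoxc5, Hoxc6, Hoxc8, Hoxc9, Hoxc10, Hoxc11, Hoxc12 and Hoxc13. The 250 bases before the start are given below 5′ to 3′ on the strand of the gene, with every CG in capitals. Hoxa13, Hoxd13 and Hoxa5 have the most CG pairs among the matched members, Hoxa9 has the lowest observed-to-expected CpG ratio by the richer of a gene's entries, and Emx1, a homeobox gene that is active in cortex, stands for comparison.
Hoxa13 (chr6:52260881-52261130, minus strand): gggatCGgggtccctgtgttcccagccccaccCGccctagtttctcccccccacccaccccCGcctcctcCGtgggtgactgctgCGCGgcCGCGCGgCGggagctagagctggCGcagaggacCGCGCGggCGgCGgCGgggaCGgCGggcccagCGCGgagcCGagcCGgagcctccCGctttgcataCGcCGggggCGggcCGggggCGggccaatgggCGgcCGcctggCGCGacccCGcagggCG
Hoxd13 (chr2:74667975-74668224, plus strand): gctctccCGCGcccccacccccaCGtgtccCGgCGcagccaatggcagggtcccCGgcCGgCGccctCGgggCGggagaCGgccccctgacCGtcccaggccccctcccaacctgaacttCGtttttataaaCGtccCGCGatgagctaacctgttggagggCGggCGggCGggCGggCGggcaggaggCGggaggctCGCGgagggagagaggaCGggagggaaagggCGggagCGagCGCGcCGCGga
Hoxa5 (chr6:52204588-52204837, minus strand): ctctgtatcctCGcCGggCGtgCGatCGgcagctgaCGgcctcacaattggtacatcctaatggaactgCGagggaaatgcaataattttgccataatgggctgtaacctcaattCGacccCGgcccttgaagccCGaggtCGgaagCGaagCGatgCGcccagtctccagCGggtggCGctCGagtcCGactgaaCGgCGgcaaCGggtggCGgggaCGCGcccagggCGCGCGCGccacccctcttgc
Hoxa9 (chr6:52227371-52227620, minus strand): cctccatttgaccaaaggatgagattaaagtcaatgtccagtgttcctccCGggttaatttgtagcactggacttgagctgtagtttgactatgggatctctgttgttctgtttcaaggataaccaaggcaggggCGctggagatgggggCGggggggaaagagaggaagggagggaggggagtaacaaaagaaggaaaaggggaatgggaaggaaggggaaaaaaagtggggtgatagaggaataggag
Emx1 (chr6:85187681-85187930, plus strand): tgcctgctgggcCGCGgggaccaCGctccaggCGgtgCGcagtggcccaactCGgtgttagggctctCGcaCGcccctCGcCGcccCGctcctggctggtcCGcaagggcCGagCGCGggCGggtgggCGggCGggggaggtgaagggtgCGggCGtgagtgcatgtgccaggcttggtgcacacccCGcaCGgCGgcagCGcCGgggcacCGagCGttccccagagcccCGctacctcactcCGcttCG

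These stretches hold 35 CG pairs before Hoxa13, 31 before Hoxd13, 28 before Hoxa5 and 3 before Hoxa9, beside 30 before Emx1. A promoter was called CpG-rich where its 250 bases before and 50 after the start had an observed-to-expected CpG ratio of at least 0.6 and at least 50% G and C. By that measure 11 of the 22 Hox promoters (50%) were CpG-rich, beside 49.5% of 16602 other protein-coding genes. At least 1 CG, the only motif searched and its own reverse complement, was present in 22 of the 22 and in 95.2% of the others. The H3K9ac lists had a peak within 1 kb of the Emx1 start in 4 TSA and 4 Vehicle libraries, and none within 1 kb of the starts of Hoxa13, Hoxd13, Hoxa5 or Hoxa9 in any library.

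The clusters also hold genes of microRNAs, which pair with messenger RNAs through their seed (bases 2 to 8, in capitals). The RefSeq mature sequences below are of the miR-10 family, the miR-196 family and miR-615. They are shown because the hairpin of miR-615 lies in Hoxc5 under a peak of 1 TSA library, with miR-615-3p at chr15:103014969-103014990 on the plus strand of GRCm38.p6. Both miR-10a-5p and miR-10b-5p have the seed ACCCUGU, and both miR-196a-5p and miR-196b-5p have AGGUAGU.
mmu-miR-10a-5p: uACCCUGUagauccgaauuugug
mmu-miR-10b-5p: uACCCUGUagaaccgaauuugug
mmu-miR-196a-5p: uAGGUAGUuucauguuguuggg
mmu-miR-196b-5p: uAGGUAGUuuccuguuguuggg
mmu-miR-615-3p: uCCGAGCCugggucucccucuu

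The Hox genes were almost without reads in both groups. All 39 together had 1, 3, 2 and 1 reads in TSA 1 to 4, against 0, 1, 1 and 2 reads in Vehicle 1 to 4. The groups overlap, and the highest library has 3 reads over 39 genes. Pooled, that is 7 reads of 61562281 in TSA, or 0.114 CPM on raw totals (counts scaled to a common library total, CPM, 95% Poisson interval 0.0457 to 0.234), and 4 reads of 56374820 in Vehicle, or 0.0710 CPM (0.0193 to 0.182). These intervals, and the limits given for counts of 0, cover counting error only. On scaled totals, the CPM summed over members was 0.121 ± 0.0491 in TSA and 0.0728 ± 0.0649 in Vehicle (SD, n = 4 each), a difference of 0.0478 CPM, smaller than the SD of either group. In whole tissue, fewer cells of a type and less RNA per cell cannot be told apart.

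No member reached the least count needed for testing, which was about 10 counts at the median depth in at least 4 libraries. So 0 of 39 members were tested and 0 were called, while edgeR's quasi-likelihood test called 33.0% of 15000 tested genes at a Benjamini-Hochberg adjusted p under 0.05. With no filter, 28073 genes were tested and 17.8% called, and the 7 members with any read entered the fit. Their adjusted p-values in edgeR lay between 0.383 and 0.9999. None of the 7 had an unadjusted p under 0.05 in edgeR, where the lowest was 0.155, or in DESeq2, where the lowest was 0.677.

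**Figure D1:**
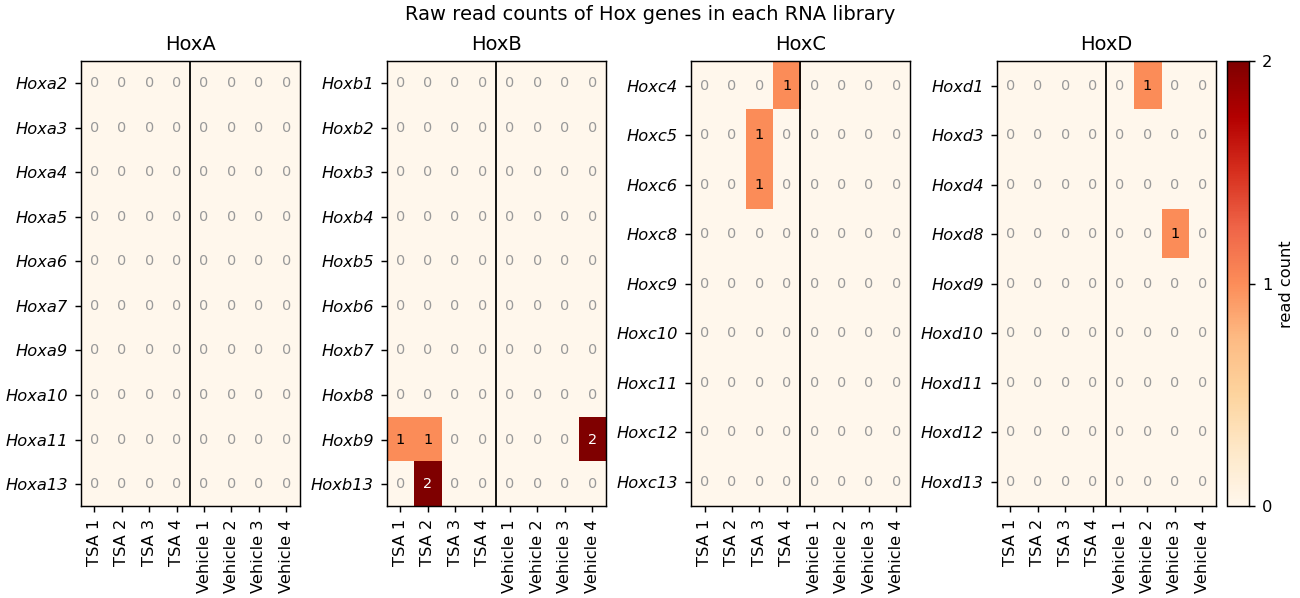
Raw read counts of Hox genes (rows, by cluster, low numbers at the top) in each RNA library (columns, TSA left of the line, Vehicle right of it), with darker cells for more reads. All but 7 of the genes drawn are at 0 in all 8 libraries, and no cell is above 2 reads.

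HoxA, whose 5′ members Hoxa9 to Hoxa13 pattern limb and urogenital tract and whose 3′ member Hoxa2 patterns the hindbrain, had 0 reads of its 11 genes in every library. A count of 0 allows up to 0.0487 CPM for a gene over the 4 pooled TSA libraries and up to 0.0532 over the 4 Vehicle libraries (3 counts of the pooled total). Within HoxB, Hoxb9, a gene of the thoracic axial skeleton, had 1, 1, 0 and 0 reads in TSA 1 to 4, against 0, 0, 0 and 2 reads in Vehicle 1 to 4. The totals are equal at 2 reads a group. Hoxb13, which acts in tail bud and prostate, had 0, 2, 0 and 0 reads in TSA 1 to 4, against 0 in each Vehicle library. Both Hoxb13 reads come from TSA 2.

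Within HoxC, 3 genes had a single read, each in a TSA library: Hoxc4 in TSA 4, and Hoxc5 and Hoxc6 in TSA 3. These are cervical and upper thoracic genes at the 3′ end of the cluster. In HoxD the reads were all in Vehicle, with a single read of Hoxd1 in Vehicle 2 and a single read of Hoxd8 in Vehicle 3, and none in TSA. Hoxd1 is the 3′ end gene of HoxD, and Hoxd8 lies in its middle. Thus 5 members had any read in TSA, 3 in Vehicle, and 32 of the 39 in neither. Reads were counted without strand, and the spans of 20 members overlap another annotated gene. How reads in such overlaps were counted is not given. Reads there may belong to the overlapping gene or may have been left out, so both a read and a 0 are less certain. Of the 19 members that overlap none, 15 were at 0 in all 8 libraries.

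Among the Hox genes 32 of 39 (82.1%) were at 0 in all 8 libraries, beside 3893 of 20673 others (18.8%). The question of opening can be put to the genes with no read in Vehicle. Of 36 such Hox genes, 4 (11.1%) had a read in at least 1 TSA library, and 0 had one in all 4. Over all 4366 such coding genes, Hox genes included, 10.1% had a read in at least 1 TSA library, and 13 (0.298%) had one in all 4. The Hox share is near that background. The other direction gave 2 of 34 Hox genes at 0 in TSA with a read in Vehicle (5.88%), against 10.7% of all 4396 such genes. Reads in all 4 Vehicle libraries were found at 0 of those 34 Hox genes and at 14 of 4362 others at 0 in TSA (0.321%). Genes silent in 1 group and read in all 4 libraries of the other were thus about as many in either direction. Depth was not matched, and a read in all 4 libraries is harder to reach where a library is shallow. TSA 1 had 6733415 counts, against 12200426 in Vehicle 4, the lowest of its group. Of the 13 genes with reads in all 4 TSA libraries, Sycp1, a meiotic synaptonemal complex gene, had 21, 58, 141 and 50 reads in TSA 1 to 4. Hmx2, a homeobox gene outside the clusters, had 1, 4, 19 and 6. Both were at 0 in each Vehicle library. They were chosen after their values were seen, from those with the most TSA reads.

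Noncoding genes inside the clusters were close to silent too. RefSeq places 34 there, of which 21 matched an ID in the count files, and 18 of the 21 were at 0 in all 8 libraries. The silent ones include Hotair in HoxC and Hottip and Hotairm1 in HoxA, long RNAs known for acting on Hox transcription, and the genes of the 6 microRNA hairpins Mir10a, Mir10b, Mir196a-1, Mir196a-2, Mir196b and Mir615. Counts of a hairpin gene in such a library do not measure the mature microRNA. Hoxaas3 had 2 reads in all and Gm53 had 1. Gm11539, a pseudogene between Hoxb13 and Hoxb9, was the only one tested, with 1, 12, 19 and 18 reads in TSA 1 to 4, against 25, 16, 15 and 34 reads in Vehicle 1 to 4. Its groups overlap, and its log2 fold change of −0.998 did not pass (SE 0.426, edgeR adjusted p = 0.0872). Reads of a pseudogene may belong to its parent gene, so its value is uncertain.

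H3K9ac showed the same near-absence at the Hox promoters. A peak within 1 kb of the start was listed at 2, 0, 1 and 0 of the 39 members in TSA 1 to 4, against 0 members in each of Vehicle 1 to 4. At the 16602 other protein-coding genes with a window, 54.4% to 63.4% had a peak in TSA and 48.4% to 60.1% in Vehicle. The lists rested on 15365856 to 19920755 tags and 32248 to 61217 peaks in TSA, against 11824246 to 24075842 tags and 22668 to 43645 peaks in Vehicle. Numbers of peaks therefore differ between libraries of a group by more than between the groups.

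Within 1 kb of the start, Hoxb13 and Hoxc5 alone had a peak in any list. With 2.5 kb on each side 7 members had one, on average 1.5 members in a TSA list and 0.75 in a Vehicle list, and over the gene span with 1 kb on each side (chosen after seeing the data) 9 members had one, on average 2.0 and 0.75. At Hoxb13 the peak was listed in TSA 1 and TSA 3 and in no Vehicle library (Fisher's exact test of 2 of 4 against 0 of 4 lists, two-sided p = 0.429). Its merged region, chr11:96194359-96194654, starts inside the gene, just after its start. At Hoxc5 a peak was listed in TSA 1 alone (Fisher's exact test, p = 1). That region, chr15:103014779-103015082, lies in the gene and covers the miR-615 hairpin. The TSA 1 peak there ranked low: 3.80% of the peaks of its list had a −log10 q as low or lower. Neither gene has a RefSeq promoter entry, so their starts were taken as the 5′ end of the RefSeq gene. The smallest p that 4 against 4 lists can give is 0.0286, before any adjustment.

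A window was called gained where the number of TSA lists with a peak exceeded that of Vehicle lists by at least 3, and lost in the opposite case. Of the 39 Hox windows 0 were gained and 0 lost, whereas 0.697% of all 16641 windows were gained and 0.0421% lost, that is 116 and 7. That imbalance changed with the setting: with the same number of top peaks in each list, 70 windows were gained and 64 lost. Without TSA 4 it was 68 and 39, and without Vehicle 4 it was 74 and 43. With a list left out, a window was called where the share of lists with a peak differed by at least 0.75. That cut-off is not the same for 3 lists against 4, so these counts do not show the effect of the omitted list alone. The Hox counts were 0 in these settings too. All 39 Hox windows lacked a Vehicle peak, and 2 of them (5.13%) had one in at least 1 TSA list. Of all 6057 windows without a Vehicle peak, Hox included, 9.58% had one in at least 1 TSA list. A peak in all 4 TSA lists was found at 0 Hox windows and at 0.182% of all such windows. RNA libraries and peak lists with the same number are separate samples, and the labels do not say that they share an animal.

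Elsewhere, CpG-rich promoters mostly carried the mark. Of the 11 CpG-rich Hox promoters, 0 had a peak in any of the 8 lists, while 97.6% of the 8222 other CpG-rich promoters had one in at least 1 list and 75.5% in all 8. The shares at other genes with as few reads were as follows. Among 4167 other genes with at most 4 reads in all, the most that any Hox gene had, 2.54% to 5.28% of windows had a peak in TSA and 1.66% to 3.77% in Vehicle. Among the 159 of those with CpG-rich promoters, 28.3% to 50.9% had one in TSA and 19.5% to 39.6% in Vehicle. A list of 30 regulators of other organs, such as Gata4 and Myod1, had 19 members with a window. Of those 19, 9 had a peak in at least 1 list and 0 in all 8. The 9 include Prrx1, which was not silent here, with 1478 reads over the 8 libraries and a peak in 3 TSA and 3 Vehicle lists. These shares are descriptions of the lists, with no test.

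**Figure D2:**
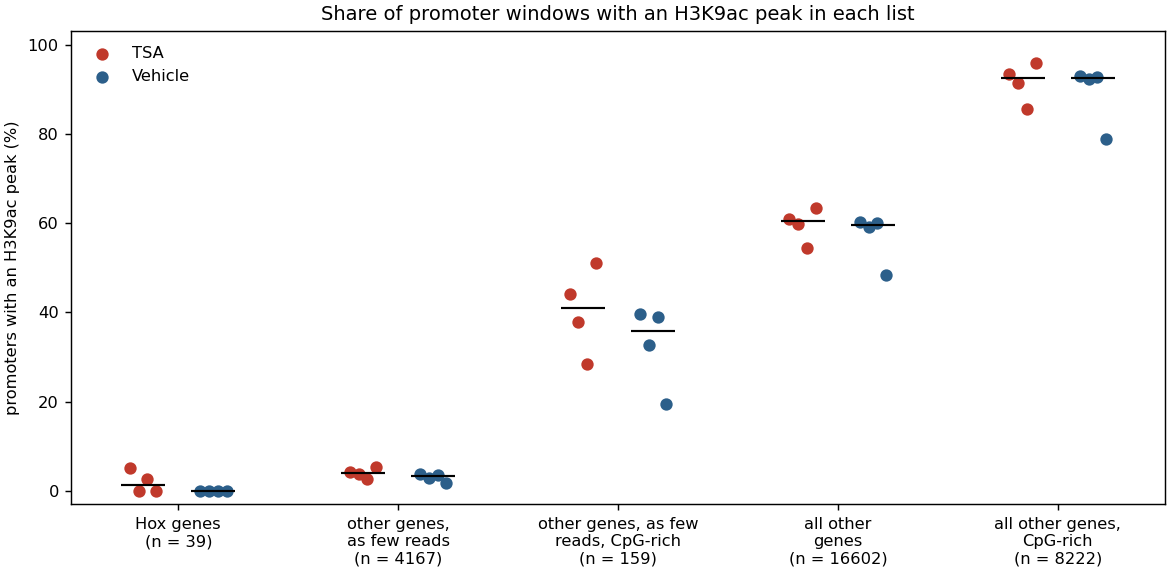
Percent of promoter windows (1 kb each side of the start) that overlap an H3K9ac peak in each list, for Hox genes and 4 classes of other genes, with 1 point per library (TSA left, Vehicle right) and a bar at the median. "As few reads" means at most 4 reads over the 8 RNA libraries. Hox genes lie at 0% to 5.13%, and the 159 CpG-rich genes with as few reads at 19.5% to 50.9%.

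Across whole clusters, from the first to the last coding gene with 5 kb added at each end, peaks numbered 9, 2, 2 and 2 in TSA 1 to 4, against 0, 3, 1 and 0 in Vehicle 1 to 4. Of the 15 TSA peaks 9 come from TSA 1, and the remaining libraries of the groups overlap. The peaks covered 1752, 326, 388 and 629 bases of 532.097 kb in TSA 1 to 4, against 0, 483, 265 and 0 bases in Vehicle 1 to 4. The means were 774 ± 665 bases in TSA and 187 ± 234 bases in Vehicle (SD, n = 4 each), a difference of 587 bases. Without TSA 1 the difference was 261 bases, with 6 peaks in 3 TSA lists and 4 peaks in 4 Vehicle lists. The covered share was 0.0613% to 0.329% of the clusters in TSA and 0% to 0.0908% in Vehicle. Over the genome the lists covered 0.668% to 1.41% in TSA and 0.436% to 1.03% in Vehicle, of an effective size of 1.87 Gb per the file headers. So the clusters held less of the mark than the genome at large in each of the 8 lists.

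The 19 cluster peaks merged into 15 regions, of which 11 were listed in TSA alone, 3 in Vehicle alone and 1 in both. Most of the regions in TSA alone came from TSA 1. TSA lists also held more peaks over the genome (mean 48366 against 37408 in Vehicle), and the same split over all regions is not given here. All but 2 regions were in a single list. The region shared by most lists, chr6:52221426-52221778, lies between Hoxa7 and Hoxa9, 2985 bases before the Hoxa7 start. It was listed in TSA 1, TSA 2 and TSA 3 and in Vehicle 3 (Fisher's exact test of 3 of 4 against 1 of 4 lists, two-sided p = 0.486). Hoxa7 and Hoxa9 both had 0 reads in all 8 RNA libraries. The authors' fold enrichment at the cluster peaks ran from 3.06 to 5.39, where list medians were 4.59 to 5.52. Their median length was 173 bases, where list medians were 257 to 293. By −log10 q they stood between the lowest 0.233% and 58.9% of their own list, with a median of 25.4%.

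The remaining regions are spread over the clusters. In HoxA they include one in the overlapping spans of Hoxa3 and Hoxa6 (Vehicle 2) and one in Hoxa11 (TSA 2). In HoxB a region in Hoxb3 was listed in TSA 1. In HoxC, Hoxc6 held a region of Vehicle 2 and, close by and without overlap, one of TSA 1. A further region each lay before Hoxc8 (Vehicle 2), before Hoxc5 (TSA 1) and near Hoxc12 (TSA 1). In HoxD a region in Hoxd3 was listed in TSA 4, and 2 regions before Hoxd1 were listed in TSA 1. The 5′ genes Hoxd9 to Hoxd13 and Hoxc9 to Hoxc11 held no peak in any list.

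**Figure D3:**
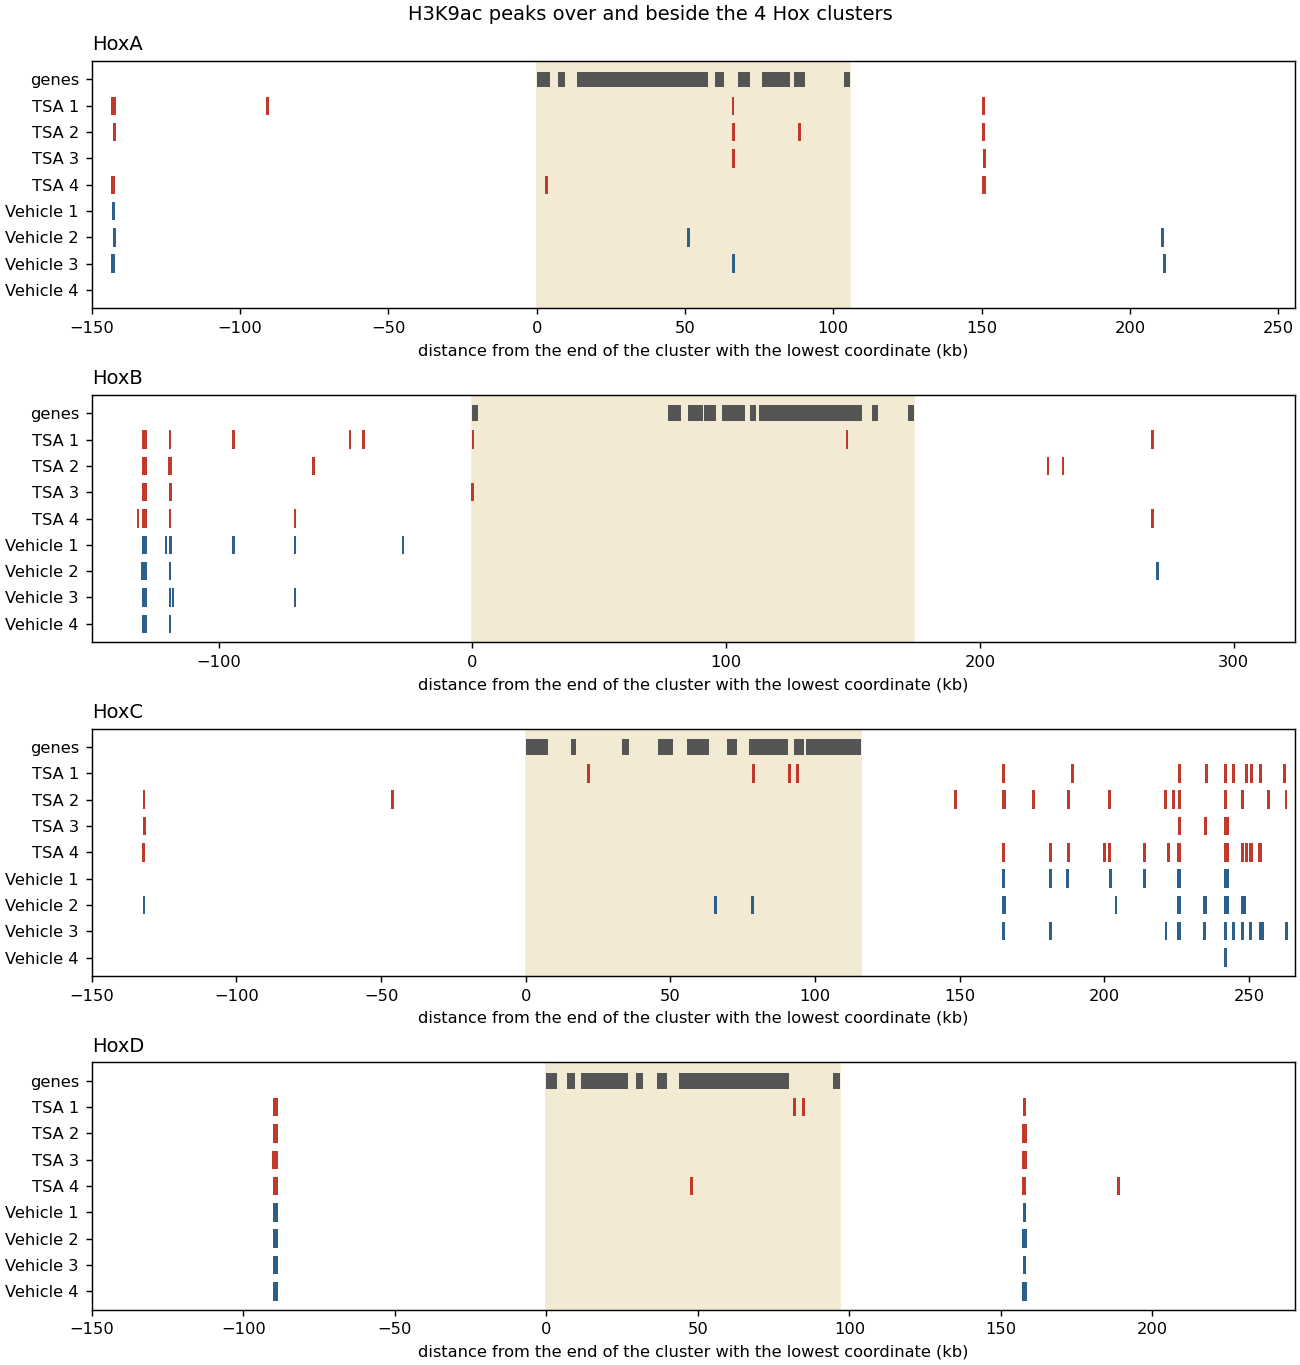
H3K9ac peaks of each list (TSA rows above Vehicle rows) over the 4 Hox clusters (shaded) and 150 kb on each side. The x axis is the distance in kb from the end of the cluster with the lowest coordinate, grey boxes are the coding Hox genes, and peaks under 1 kb are drawn 1 kb wide. Peaks inside the shading are few and mostly in 1 list, whereas the regions beside HoxD near Lnpk and Mtx2 recur in all 8 lists.

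Around this sparse interior, the nearest regions present in all 8 lists lie outside the clusters. The gap between them was 1026 kb around HoxA, 701 kb around HoxB, 415 kb around HoxC and 246 kb around HoxD. Genome-wide, 4.37% of gaps between such regions were as long as that of HoxA, 6.91% as that of HoxB, 11.6% as that of HoxC and 17.8% as that of HoxD. Each Hox gap was picked because it spans a cluster, so it had to exceed that cluster's length (96.9 kb for HoxD to 173.9 kb for HoxB). The median of all 12380 gaps was 48.0 kb. These shares are therefore partly set by the choice and do not test how isolated the clusters are. The HoxD gap ends 88.7 kb and 60.3 kb from the cluster, at Lnpk and Mtx2, broadly expressed genes next to HoxD. The HoxA gap ends near Snx10 and at Hibadh, the HoxB gap at Atp5g1 and Snx11, and the HoxC gap near Calcoco1 and at Smug1.

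Most coding neighbours of the clusters were expressed and could be tested. Of the 3 nearest on each side of HoxA, 5 were tested, with 0 rises and 1 fall. Of those beside HoxB 4 were tested, with 0 rises and 1 fall. Beside HoxC 6 were tested, with 2 rises and 1 fall, and beside HoxD 4, with 0 rises and 3 falls. The background is 15.4% rises and 17.6% falls over all tested genes. The falls beside HoxD were of Mtx2, a mitochondrial import gene, Atp5g3, an ATP synthase subunit, and Lnpk, which shapes the endoplasmic reticulum.

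Mtx2 had 48.7, 53.1, 53.4 and 47.2 CPM in TSA 1 to 4, against 70.0, 77.8, 79.8 and 90.3 CPM in Vehicle 1 to 4, with no overlap. The log2 fold change of Mtx2 came to −0.65 ± 0.09 (SE, adjusted p = 0.000211 in edgeR). Beside HoxC, Atf7, a bZIP transcription factor gene, had 72.0, 71.8, 66.0 and 71.4 CPM in TSA 1 to 4, against 56.6, 42.4, 33.6 and 39.5 CPM in Vehicle 1 to 4 (log2 fold change 0.71 ± 0.13, SE, edgeR adjusted p = 0.000987). All TSA libraries lie above all Vehicle libraries. The log2 fold changes were −0.62 for Atp5g3, −0.43 for Lnpk, 0.40 for the transcriptional coactivator gene Calcoco1, −0.48 for the DNA repair gene Smug1, −0.41 for Cbx1, which encodes a heterochromatin protein, and −0.32 for the sorting nexin gene Snx10. The adjusted p of those 6 lay between 0.000372 and 0.00923. Cbx3, Skap2, Hibadh and Tax1bp1 beside HoxA, Atp5g1, Skap1 and Snx11 beside HoxB, Atp5g2, Cbx5 and Hnrnpa1 beside HoxC and Hnrnpa3 beside HoxD did not pass. The homeobox neighbours were silent like the clusters, with 0 reads of Evx1 beside HoxA and 1 read of Evx2 beside HoxD, and neither had a promoter peak in any list.

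Genes that act on or with Hox genes were expressed and could be tested. Cofactors of the TALE homeodomain class bind DNA together with Hox proteins and also serve other homeodomain factors. Of 9, 0 rose, 2 fell and 7 did not pass, beside the 15.4% of all tested genes that rose and 17.6% that fell. The median log2 fold change was 0.02, beside −0.01 over all tested genes. Pbx3 had 38.5, 53.5, 60.0 and 66.3 CPM in TSA 1 to 4, against 92.3, 123, 170 and 147 CPM in Vehicle 1 to 4, with no overlap. Pbx3 fell by 1.28 on the log2 scale (SE 0.19, adjusted p = 0.000398 in edgeR). Meis1 had 10.8, 13.9, 14.1 and 13.98 CPM in TSA 1 to 4, against 16.7, 25.2, 29.3 and 24.0 CPM in Vehicle 1 to 4 (log2 fold change −0.84 ± 0.16, SE, edgeR adjusted p = 0.00126). Every TSA library lay below every Vehicle library. Pknox2 (0.13) did not pass.

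Caudal factors and retinoic acid switch Hox genes on in the embryo. Cdx1, Cdx2 and Cdx4, the caudal homeobox genes, were at 0 in all 8 libraries. Of 21 genes of this list 14 were tested, 2 rose and 6 fell, where 15.4% of all tested genes rose and 17.6% fell, and the median log2 fold change was −0.28. Crabp1, a binding protein of retinoic acid, had 2.59, 2.99, 2.71 and 2.996 CPM in TSA 1 to 4, against 18.4, 20.2, 23.8 and 20.6 CPM in Vehicle 1 to 4. Crabp1 fell by 2.86 on the log2 scale (SE 0.15, adjusted p = 4.37e-08 in edgeR). Crabp2, of the same family, fell by 1.13 on the log2 scale, and Cyp26b1, which breaks retinoic acid down, fell by 0.79. The receptor gene Rarg rose by 0.69.

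Polycomb genes encode the complexes that hold Hox clusters shut. All 24 were tested, and 7 rose, 3 fell and 14 did not pass, where 15.4% of all tested genes rose and 17.6% fell. The median log2 fold change was 0.17. The largest change by p was in Rbbp4, a histone-binding subunit that is shared with deacetylase complexes. It had 369, 342, 326 and 343 CPM in TSA 1 to 4, against 527, 577, 522 and 660 CPM in Vehicle 1 to 4, with no overlap. The change was −0.73 ± 0.10 on the log2 scale (SE, adjusted p = 0.000142 in edgeR). Bmi1, a core subunit of Polycomb repressive complex PRC1, fell by 0.35. Aebp2, an accessory subunit of the complex PRC2 that lays down H3K27me3, rose by 0.34.

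Trithorax genes and H3K27 demethylases work against Polycomb at Hox genes. All 14 were tested, and 6 rose, 2 fell and 6 did not pass, where 15.4% of all tested genes rose and 17.6% fell. The median log2 fold change was 0.24. Kdm6b, which removes methyl groups from H3K27, had 219, 186, 188 and 241 CPM in TSA 1 to 4, against 145, 126, 129 and 126 CPM in Vehicle 1 to 4. All 4 TSA values are above all 4 Vehicle values (log2 fold change 0.66 ± 0.10, SE, edgeR adjusted p = 0.000261). Kdm6a, the other H3K27 demethylase of the list, fell by 0.44 (SE 0.12, edgeR adjusted p = 0.0132), with groups that overlap. Kmt2a, the H3K4 methyltransferase that maintains Hox expression, rose by 0.51, and Kat6a, a histone acetyltransferase, by 0.54. Dpy30, a subunit of the H3K4 methyltransferase complexes, fell by 0.91.

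Most of the regulators of other organs had too few reads to test. Of 30 2 were tested, the mesenchymal homeobox gene Prrx1 fell by 0.99 (edgeR adjusted p = 0.000411) and Sox17 (−0.30) did not pass, and 12 were at 0 in all 8 libraries. Of 13 ParaHox and posterior homeobox genes 4 were tested, and 6 were at 0. Gsx2, a patterning gene of the ventral forebrain, fell by 2.18, and Gbx1 had 4.57, 3.55, 8.23 and 4.93 CPM in TSA 1 to 4, against 1.30, 0.386, 1.31 and 1.03 CPM in Vehicle 1 to 4. Gbx1 thus rose by 2.42 on the log2 scale (SE 0.35, edgeR adjusted p = 0.000223). Gsx1 (−0.33) and Gbx2 (−0.24) did not pass. Over the 6 lists together 67 genes were tested, of which 16 rose and 15 fell, beside the same background of 15.4% and 17.6%. Without TSA 1 these counts were 10 and 10. Leaving it out also lowered the calls over all genes, from 2314 to 1707 rises and from 2640 to 2149 falls.

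**Figure D4:**
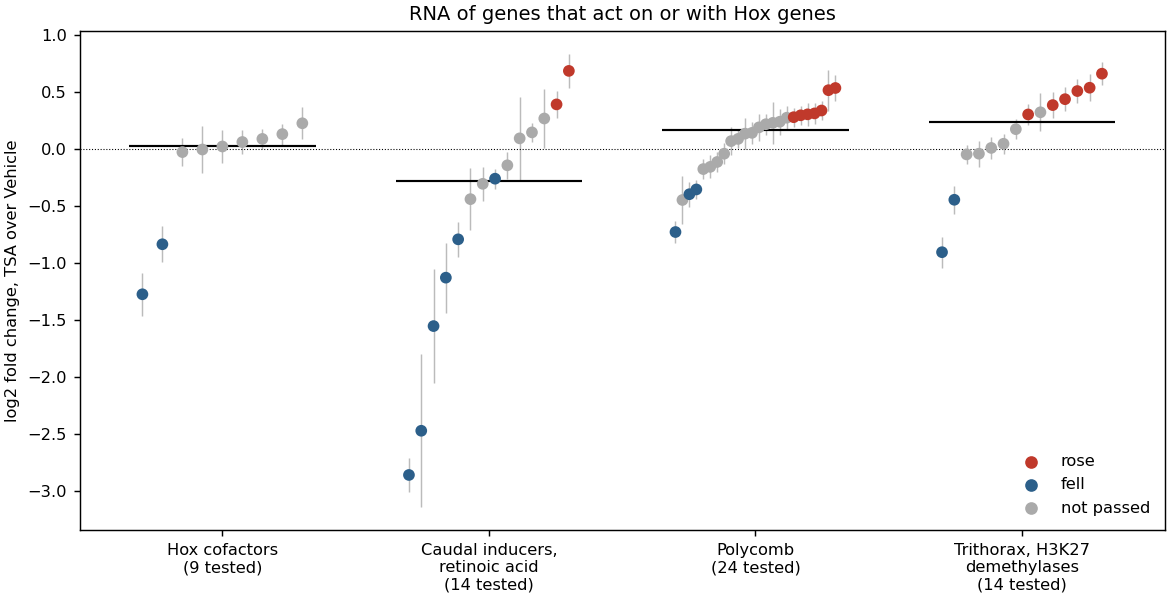
Log2 fold change of TSA over Vehicle for each tested gene of 4 lists (points, sorted within a list, coloured by call at an edgeR adjusted p under 0.05), with SE bars and a black line at the list's median. The medians are 0.02, −0.28, 0.17 and 0.24 from left to right, and Crabp1 at −2.86 is the lowest point.

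Markers of tissues that do express Hox genes were looked at beside these results. Of 13 hindbrain and spinal cord markers 1 was at 0 in all 8 libraries, and 2 were tested and did not pass, Olig3 among them. The summed level of the list was 30.9 to 39.4 CPM in TSA and 23.6 to 36.3 CPM in Vehicle, most of it from 1 gene that other cell types also express. Meninges and mesenchyme markers summed to 14.5 to 21.0 CPM in TSA and 15.7 to 20.2 CPM in Vehicle, with 7 of 12 tested and 1 fall (Dcn, a collagen-binding proteoglycan, −1.11), while Prrx2, Col1a1 and Col1a2 did not pass. Ganglion markers summed to 11.4 to 29.6 CPM in TSA and 26.3 to 49.6 CPM in Vehicle, and none of 4 tested passed (Isl1, Avil, Sox10 and Th). Cortex markers, by contrast, summed to 3105 to 3675 CPM in TSA and 1912 to 2726 CPM in Vehicle. Of 10, 8 rose, where 15.4% of all tested genes did, and Pax6 fell by 1.54, with rises of 2.09 for Eomes, 0.90 for Tbr1 and 0.82 for Neurod2. Blood markers had 3 falls of 11 tested and endothelial markers 2 of 8, where 17.6% of all tested genes fell, and choroid plexus markers had none of 3 pass. Their part in the few Hox reads was not tested.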

How the data were processed

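RNA from 8 samples and H3K9ac from 8 samples, with 4 TSA and 4 Vehicle samples each, were grouped by the treatment in the labels. For RNA the authors deposited raw read counts by Ensembl gene ID, 1 library a file, with no normalization. The kit named in the labels' protocols does not mark strand, and the build was mm10 per the submitters' processing notes. The sources used here name no aligner, counter or annotation. No row of unassigned reads held a count, and 0 columns of per-sample values were left unused. The peak lists were called library by library with MACS2 2.1.0.20140616 at a q limit of 0.1 against an input of 18937878 tags, per the file headers. The headers give that same input total for all 8 lists, while the labels list a separate input for TSA and for Vehicle. Lists of both groups may therefore rest on the same input. Each deposited peak has a pileup signal at its summit, a fold enrichment (a ratio to local background) and a −log10 p and q, which the authors' caller computed. These were used only to describe, rank or filter peaks within a list. The input samples were not analysed here, and lists were compared by presence of a peak.

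Counts were fitted over all genes with edgeR 4.0.16 in R 4.3.3 (filterByExpr, TMM scaling, robust quasi-likelihood test, Benjamini-Hochberg adjustment, called under 0.05). The SE is the log2 change divided by the root of the F statistic. Alternatives used limma 3.58.1 and DESeq2 1.42.0. On simulated counts for 15000 genes with 200 changed 3-fold, 95.5% of the changed genes were recovered. The simulation took the levels of genes that passed the filter and the same fixed spread for every gene. It checks the code and does not give the power for these data or for genes as low as Hox. RefSeq gene positions, promoters and microRNAs are of GRCm38.p6. Starts were those of the promoter entries, or, for 17 Hox genes, the 5′ end of the gene. Coordinates are 1-based. Fisher's exact tests compared numbers of lists, 4 against 4, two-sided. Sums over Hox genes were given no test.

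The members and lists were chosen with earlier results of these data known, so no pattern already seen in them counts as independent support. All Hox genes are accounted for in the counts. A gene of another list was named if it was among the 4 with the smallest p, and a neighbour or noncoding gene if it was called or had at least 100 counts. Hotair, Hottip, Hotairm1, the microRNA genes, Hoxaas3, Gm53, Evx1, Evx2, Gata4, Myod1, the caudal genes, Emx1, Kdm6a, Sycp1 and Hmx2 were named outside that rule. A few genes within the rule are left out of this text. Replicate libraries differed beyond sampling noise in every pair of a group (chi-square over degrees of freedom 3.12 to 36.0).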

Additional observations from a re-analysis of the deposited data

Results flagged for a closer look

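A library was singled out where its gap to the nearest of its group, divided by the whole range, was above Dixon’s 95% critical value for 4 samples. Chance does this in about 1 of 20 groups, and many groups were looked at. Among H3K9ac lists, TSA 1 held 9 peaks over the Hox clusters, against 2 in each other TSA list. TSA 1 also covered 847 bases of HoxC, where the other TSA lists covered 0. Vehicle 2 covered 332 bases of HoxC, where the other Vehicle lists covered 0. TSA 4 had 19920755 tags, more than the other TSA lists. Vehicle 4 had only 22668 peaks, the fewest of its group, and a peak at 48.4% of other promoters, also the lowest of its group, although it had the most tags. Among RNA libraries, the summed level of HoxB was 0.158 CPM in Vehicle 4, from 2 reads of Hoxb9, and 0 in the other Vehicle libraries.

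Low values stood out for Meis1 (10.8 CPM) and Crabp2 (0.913 CPM) in TSA 1, the library with the fewest counts, for Snx10 (40.2 CPM) in TSA 4 and for Atf7 (66.0 CPM) in TSA 3. High values stood out for Bmi1 (210.8 CPM) in Vehicle 2 and Rarg (7.49 CPM) in Vehicle 3. The cause of these values was not tested.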

How the results depend on the processing

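Hox RNA was tested only by edgeR with no filter and by DESeq2, where 7 members entered and 0 were called. In the other RNA alternatives (size factors of DESeq2 type, a replicate block, the lane in the file name as covariate, limma-voom and leaving out each library) no Hox gene passed the filter, so their lack of calls says nothing about stability. No Hox promoter was gained or lost under the peak alternatives, which were a q of at most 0.01, the same number of top peaks (22668) per list, windows of 500 bases and 2.5 kb, at least 200 bases covered, leaving out each list and, chosen after seeing the data, the gene span with 1 kb each side. The mean number of Hox promoters with a peak, TSA minus Vehicle, was 0.75, and it became 0.0 with equal numbers of top peaks. Leaving out 1 list moved it from 0.333 to 1. With equal numbers of top peaks the clusters held 2 peaks in TSA and 0 in Vehicle, and over all genes 70 windows were gained and 64 lost, in place of 116 and 7. Leaving out 1 list gave 68 to 163 gained and 4 to 43 lost, called at a difference of at least 0.75 in the share of lists. The mean bases covered, TSA minus Vehicle, ranged from 261 to 736 with 1 list left out (main value 587) and was 115 with equal numbers of top peaks. The summed Hox level, TSA minus Vehicle, ranged from 0.0236 to 0.0762 CPM with 1 library left out (main value 0.0478).

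Over the 6 lists of regulators, 10 to 22 genes rose and 10 to 17 fell with 1 library left out, against 16 and 15 in all. Over all genes, leaving out 1 library gave 1707 to 2702 rises and 2104 to 2891 falls. Of 938 comparisons of a named gene under an alternative, 920 kept their side of the call, 17 gained a call and 1 lost it (Hbb-bt with no filter). No called gene changed sign. In 9 of the 938 the sign turned, for 4 genes that did not pass: Clic6, Col1a2, Otx2 and Th. The causes were not tested. The shared replicate numbers do not establish pairs: same-numbered TSA and Vehicle libraries deviated together with correlations of 0.097, 0.085, 0.070 and 0.111, and TSA 3 correlated more with Vehicle 2 (0.155). With a replicate block 2598 genes rose and 2744 fell, in place of 2314 and 2640.

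With reads this few, a count of 0 allows a Hox level up to 0.0487 CPM in TSA and 0.0532 CPM in Vehicle. These limits are for the 4 pooled libraries of a group, and a count of 0 does not show that a gene was silent. A peak list gives no value where no peak was called, so the lists do not show weaker acetylation over the clusters.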
